A study of Nicotiana tabacum with 15 samples.

Results

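The 6 hub genes of a co-expression module that the study tied to hybrid root number, its most connected members, were followed here across 15 root libraries of tobacco (Nicotiana tabacum). They were taken by their identifiers and make up 6 of the 69500 gene models in the expression table. All 6 passed the filter on low values, which kept 37232 genes with at least 1 FPKM (fragments scaled to transcript length and to library size) in at least 3 libraries. By the study's annotation they comprise a lysine tRNA ligase (Nitab4.5_0000119g0080), 3 serine/threonine-/dual specificity protein kinases (Nitab4.5_0004384g0070, Nitab4.5_0011528g0020 and Nitab4.5_0003282g0020), a NAD dependent dehydratase (Nitab4.5_0002818g0040) and a mitochondrial carrier (Nitab4.5_0009232g0030). Because the study built its co-expression network on these same 15 libraries, the likeness of the 6 genes to each other, and the link of their module to the hybrids, are in part what chose them. The tests below are therefore not independent evidence for either.

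The hybrids were GJ, a cross of the female parent G70 with the male parent Jiucaiping No.2, and KJ, a cross of the female parent K326 with the same male parent. Their parents are called G (G70), K (K326) and J (Jiucaiping No.2), and none of the 5 genotypes carried a treatment. Seedling roots were sequenced in 3 libraries of each genotype, which makes 6 hybrid and 9 parental libraries. The sources used here do not say whether a library came from 1 plant or several, so each p-value reflects only how far these libraries vary, which may be technical. The sample titles name leaf, while the tissue entry and the study name root. This could not be checked against root markers, since no table used here pairs the gene identifiers with descriptions.

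A lysine tRNA ligase joins lysine to its transfer RNA and thereby feeds protein synthesis on the ribosome. Serine/threonine protein kinases pass a phosphate from ATP to other proteins, and dual specificity members can also act on tyrosine. Plants hold a large group of receptor-like kinases that carry such a catalytic domain inside the cell and sense signals outside it. NAD dependent epimerases and dehydratases use bound NAD as a cofactor, often to alter nucleotide sugars from which cell wall polymers are made. Mitochondrial carriers move metabolites through the inner mitochondrial membrane. In co-expression analysis a hub is a gene whose level follows that of many other genes, which is a statement on likeness and not on control.

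Libraries differed in more than these genes. In the hybrid libraries 32891 to 34319 genes reached 1 FPKM, against 34147 to 35535 in the parental libraries, and the 100 most abundant genes took 10.8% to 12.7% of the summed FPKM in hybrids, against 9.50% to 10.7% in parents. Pearson r between replicate libraries was 0.915 to 0.983 over the genes tested. Replicate 3 of K, and to a lesser degree replicate 1 of K and replicate 3 of G, lay nearest to the hybrids on the first principal component of all other tested genes, which held 42.5% of the variance. The expression table holds no read counts, and the read totals that the study gives were not used here, so no counting error is given. In these bulk libraries more cells of a type and more RNA per cell cannot be told apart.

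The lysine tRNA ligase gene was the most abundant of the 6 by FPKM, which is scaled to gene length. It stood at 131, 75.5 and 73.4 FPKM in GJ and at 178, 173 and 196 FPKM in KJ, against 24.4, 22.5 and 47.9 FPKM in G, 42.2, 24.7 and 88.0 FPKM in K, and 27.6, 31.0 and 31.4 FPKM in J. Every GJ library lay above every library of G and J, and every KJ library above every library of K and J, but replicate 3 of K exceeded replicates 2 and 3 of GJ. Its mean was 93.2 ± 32.5 FPKM in GJ and 182 ± 12.6 FPKM in KJ, against 31.6 ± 14.1 in G, 51.7 ± 32.7 FPKM in K and 29.997 ± 2.11 FPKM in J (n = 3 libraries each, ± SD).

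The 3 protein kinase genes lay at 5.64 to 26.6 FPKM in the hybrid libraries and at 1.29 to 9.86 FPKM in the parental ones. Nitab4.5_0003282g0020, for which the study notes a cysteine-rich receptor-like kinase domain, stood at 20.01, 9.84 and 10.4 FPKM in GJ and at 26.6, 21.3 and 20.2 FPKM in KJ, against 1.41, 1.64 and 3.78 FPKM in G, 5.3, 1.5 and 7.31 FPKM in K, and 2.07, 2.54 and 1.72 FPKM in J. It was the hub gene whose 6 hybrid libraries all lay above all 9 parental libraries. Of the genes tested, 2.69% separated the hybrids in this way, and the other 5 hub genes did not.

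Nitab4.5_0004384g0070, the second kinase, had 20.6, 8.99 and 9.70 FPKM in GJ and 23.5, 21.5 and 17.7 FPKM in KJ, against 2.44, 1.59 and 6.10 FPKM in G, 4.99, 2.93 and 9.86 FPKM in K, and 2.5, 2.5 and 2.74 FPKM in J. Nitab4.5_0011528g0020, the third, had 15.3, 5.64 and 5.73 FPKM in GJ and 17.2, 13.4 and 12.7 FPKM in KJ, against 1.57, 1.29 and 3.39 FPKM in G, 3.38, 1.6 and 7.58 FPKM in K, and 2.03, 2.02 and 1.98 FPKM in J. In both, replicate 1 of GJ reached into the range of KJ while its other replicates lay below replicate 3 of K. The kinases had the widest range of the 6 genes, with 13.3 to 18.9 times as much FPKM in the highest library as in the lowest, against 8.72 times for the ligase gene.

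The dehydratase gene Nitab4.5_0002818g0040 had the narrowest range, 3.40 times. It stood at 19.3, 12.4 and 11.6 FPKM in GJ and at 24.4, 20.6 and 22.9 FPKM in KJ, against 7.19, 7.28 and 12.1 FPKM in G, 10.5, 7.40 and 14.8 FPKM in K, and 7.48, 7.55 and 8.09 FPKM in J. Replicate 3 of GJ did not clear replicate 3 of G, so this was the hub gene in which GJ overlapped its parents.

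The mitochondrial carrier gene Nitab4.5_0009232g0030 stood at 19.6, 12.2 and 13.3 FPKM in GJ and at 28.0, 21.8 and 21.2 FPKM in KJ, against 6.64, 6.83 and 8.68 FPKM in G, 10.7, 7.33 and 15.2 FPKM in K, and 5.92, 7.36 and 7.39 FPKM in J. Both hybrids cleared their own parents in every library, and its range over all libraries was 4.73 times.

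**Figure D1:**
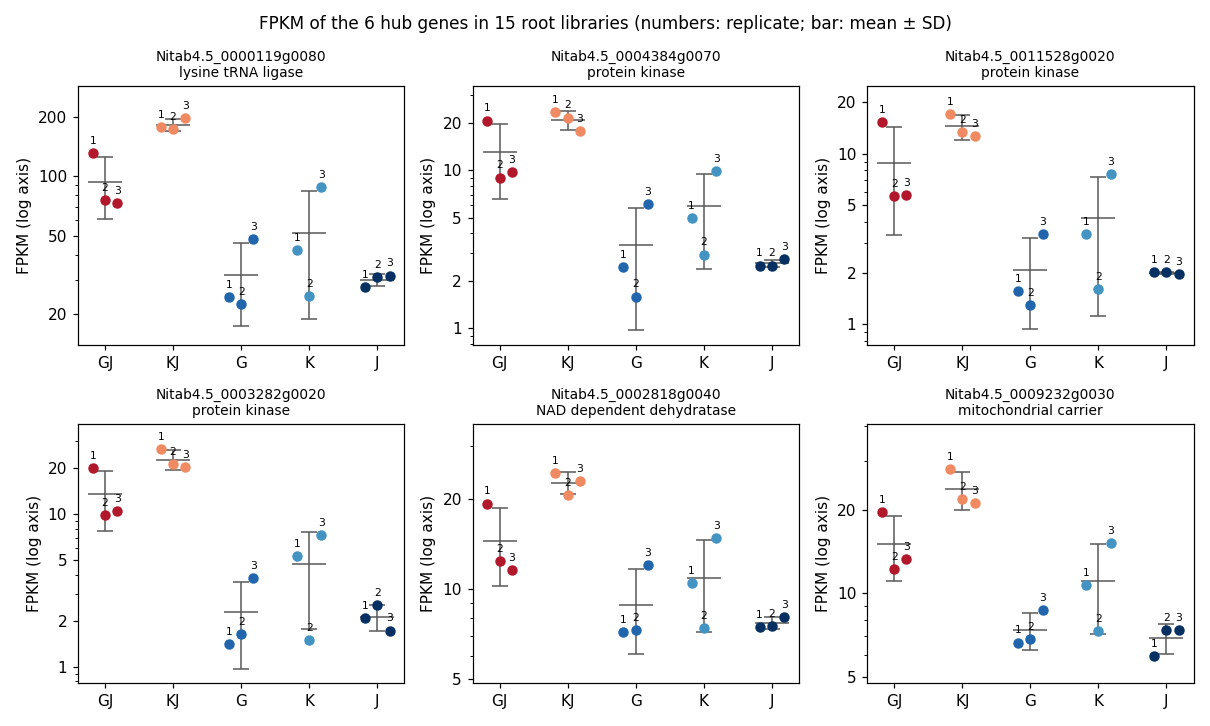
FPKM of each hub gene in every library on a log axis, by genotype (GJ, KJ, G, K, J), with replicate numbers above the points and grey bars for the mean ± SD of 3 libraries. Nitab4.5_0003282g0020 is the gene whose hybrid libraries, from 9.84 FPKM upwards, all lie above its parental libraries, which reach 7.31 FPKM, and in the other 5 genes replicate 3 of K lies above replicates 2 and 3 of GJ.

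All 6 genes shared the same order of plain FPKM means, KJ above GJ above K above G above J. On the log2(FPKM + 1) scale, J lay above G by 0.01 for the ligase gene and by 0.03 for Nitab4.5_0011528g0020, and the order was otherwise the same. No pair of neighbours in this order was called for any of the 6 genes (GJ against K, K against G, J against G, and KJ against GJ). A gene was called here when limma's moderated test, fitted on log2(FPKM + 1) over all tested genes, gave a two-sided p of at most 0.05 after Benjamini-Hochberg adjustment, and the log2 difference was at least 1 in size. By this rule none of the 6 was called between J and G, J and K, or K and G, where 0.943%, 0.416% and 0.808% of tested genes were called in either direction. At an unadjusted p below 0.05 there were 0 hub genes for J against G, 1 for J against K (the carrier) and 0 for K against G in limma. The log2 differences were -0.16 to 0.03 for J minus G, -0.83 to -0.40 for J minus K and 0.26 to 0.70 for K minus G. Their medians over the 6 genes moved with single libraries. J minus G was -0.05, but 0.28 without replicate 3 of G and -0.17 without replicate 1 or replicate 2 of G, and -0.12, -0.08 and 0.00 without replicate 2, 3 or 1 of J. J minus K was -0.60, but -0.25 without replicate 3 of K and -1.01 without replicate 2 of K. K minus G was 0.61, but 0.22 without replicate 3 of K, 1.01 without replicate 2 of K and 0.92 without replicate 3 of G. The 95% intervals of these differences reached from -1.71 to 1.57 over the 3 comparisons, and they differed by gene. For the ligase and the kinase genes they passed 1 in size in J minus K and K minus G. In J minus G only Nitab4.5_0004384g0070 passed it (-1.04 to 0.73), and the carrier gene passed it in J minus K alone (-1.06 to -0.07). The intervals of the dehydratase gene stayed between -0.93 and 0.79 in every comparison. Adding 1 to FPKM shrinks differences, most at low levels such as those of the kinases in the parents. More than 2-fold in FPKM was therefore not excluded where an interval passed 1 in size. An interval within 1 need not exclude it either.

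The first question of the design was whether a hybrid lay away from the mean of its parents, the mid-parent, taken here on the log2(FPKM + 1) scale. In GJ 4 of the 6 hub genes were called higher than the mid-parent of G and J, where 2.4% of all tested genes were. In KJ all 6 were called higher than the mid-parent of K and J, where 4.18% of all tested genes were. The median log2 difference of the 6 genes was 1.57 in GJ and 2.12 in KJ, beside -0.06 and -0.24 for all tested genes. Both crosses share the 3 J libraries, so these counts do not stand apart from one another.

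Among the kinases, Nitab4.5_0003282g0020 rose most in both crosses. It was 2.15 ± 0.35 higher on the log2 scale in GJ (SE, limma adjusted p = 0.00246) and 2.57 ± 0.35 higher in KJ (limma adjusted p = 2.90e-04), which placed it 88th and 98th from the top of the 37232 genes. On the plain FPKM scale its mean in GJ was 5.89 times that of G and 6.36 times that of J, and its mean in KJ was 4.83 times that of K and 10.8 times that of J. Nitab4.5_0004384g0070 rose by 1.81 in GJ and 2.19 in KJ, and Nitab4.5_0011528g0020 by 1.59 and 2.04, on the log2 scale. The ligase gene, which loads lysine for protein synthesis, rose by 1.56 ± 0.34 in GJ (SE, limma adjusted p = 0.00946) and by 2.27 ± 0.34 in KJ (limma adjusted p = 4.57e-04). Its FPKM mean in KJ was 3.53 times that of K and 6.08 times that of J.

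The dehydratase and the carrier gene moved less. The dehydratase gene was 0.72 above the mid-parent in GJ, with a 95% interval of 0.27 to 1.18, and the carrier gene 0.96, with an interval of 0.53 to 1.39. Their limma adjusted p of 0.0311 and 0.00760 passed, and the fold limit did not. In KJ they rose by 1.24 and 1.36 on the log2 scale, to 2.44 and 2.63 times the plain mean of both parents.

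**Figure D2:**
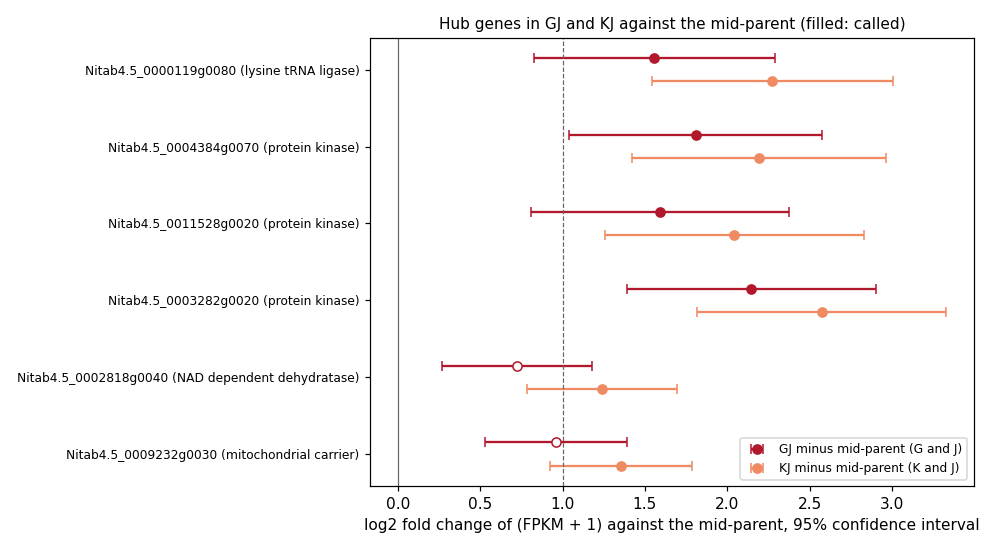
Log2 difference in (FPKM + 1) between each hybrid and its mid-parent for the 6 hub genes, with 95% confidence intervals from limma. GJ is drawn above KJ, filled points were called and open points were not, and the dashed line is the fold limit of 1. The 2 open points are the dehydratase gene (0.72) and the carrier gene (0.96) in GJ.

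Against single parents the picture was similar. GJ was called higher than G in 4 of 6 genes (2.39% of tested genes) and higher than J in 5 of 6 (1.96%). The fifth was the carrier gene, which barely passed the fold limit against J (1.00) and fell short of it against G (0.92). KJ was called higher than K in 6 of 6 (3.19%) and higher than J in 6 of 6 (4.8%). Higher than both of its parents were 4 hub genes in GJ (1.27% of tested genes), which are the ligase and the 3 kinases, and all 6 in KJ (2.5%). By rank alone, with no test, the 3 GJ libraries lay above all 6 libraries of G and J in 5 of 6 genes (9.42% of tested genes), and the 3 KJ libraries above all 6 of K and J in 6 of 6 (9.35%).

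The calls in GJ, more than the size of the differences, depended on single libraries. Without replicate 1 of GJ, the highest GJ library for every hub gene, 2 genes stayed called against the mid-parent, and the ligase gene and Nitab4.5_0011528g0020 lost their calls (log2 differences 1.29 and 1.16, limma adjusted p = 0.0597 and 0.0696). Against G the count was 1 without replicate 1 or 2 of G or replicate 1 of GJ, and against J it was 1 without replicate 1 of J or replicate 1 of GJ, 2 without replicate 3 of J and 3 without replicate 2 of J. The median log2 difference from J was 1.54 to 1.58 without any 1 J library and 1.22 without replicate 1 of GJ, beside 1.57 with all libraries, and that from G was 1.46, 1.39 and 1.23 without G replicate 1, G replicate 2 or GJ replicate 1, beside 1.58. The counts of KJ against its mid-parent and against J were 6 with any 1 library left out, while against K 4 genes were called without replicate 2 of K or replicate 1 of KJ.

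KJ lay above GJ in the mean of all 6 genes, yet none of the 6 was called between the hybrids, where 0.438% of tested genes were. The log2 difference KJ minus GJ was 0.64 to 1.01, with limma adjusted p from 0.166 to 0.327, and 3 of the 6 had an unadjusted p below 0.05. The ligase gene showed the greatest of these differences, 1.01 with a 95% interval of 0.17 to 1.85. For 4 of 6 genes all KJ libraries lay above all GJ libraries (7.28% of tested genes), the exceptions being Nitab4.5_0004384g0070 and Nitab4.5_0011528g0020.

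The departures from the mid-parent were compared directly as well. The departure of KJ minus that of GJ was 0.38 to 0.72 on the log2 scale, none of the 6 was called (limma adjusted p from 0.284 to 0.640, 0 at an unadjusted p below 0.05, with 0.508% of tested genes called), and the 95% intervals reached from -0.61 to 1.66.

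GJ was also set against K, which is not its parent. None of the 6 was called (1.98% of tested genes were), with log2 differences of 0.39 to 1.44 and limma adjusted p from 0.0609 to 0.3496, although 4 of the 6 had an unadjusted p below 0.05. Without replicate 3 of K 2 genes were called, and without replicate 3 of G 1 was.

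The spread of the hub genes among replicates varied by genotype in these libraries, which was not tested. As the 6 genes moved together, their SDs are not separate measurements of a genotype. The SD of log2(FPKM + 1) over 3 libraries had a median over the 6 genes of 0.50 in GJ, 0.20 in KJ, 0.52 in G, 0.80 in K and 0.08 in J, beside medians over all tested genes of 0.17, 0.20, 0.27, 0.19 and 0.16 in the same order. In K the SD of every hub gene lay between percentiles 84.97 and 96.6 of the genes tested, with the highest library at 2.00 to 4.87 times the lowest. In J it lay between percentiles 1.05 and 59.1, with the highest library at 1.03 to 1.48 times the lowest.

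Within GJ, G and K several libraries lay to the same side of their genotype mean in all 6 genes. Replicate 1 of GJ was 0.39 to 0.85 above its genotype mean on the log2 scale in all 6 genes, and replicate 3 of K was 0.46 to 0.94 above its own. Replicate 3 of G was above its genotype mean by 0.22 for the carrier gene up to 0.83 for Nitab4.5_0004384g0070, while replicate 2 of K lay below its mean in all 6 genes. In KJ the deviations were between -0.22 and 0.25 and each library held both signs, with the ligase gene below its mean in replicate 1 and above it in replicate 3, opposite to the kinases and the carrier gene. In J the signs were also mixed, and no gene deviated by more than 0.20.

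**Figure D3:**
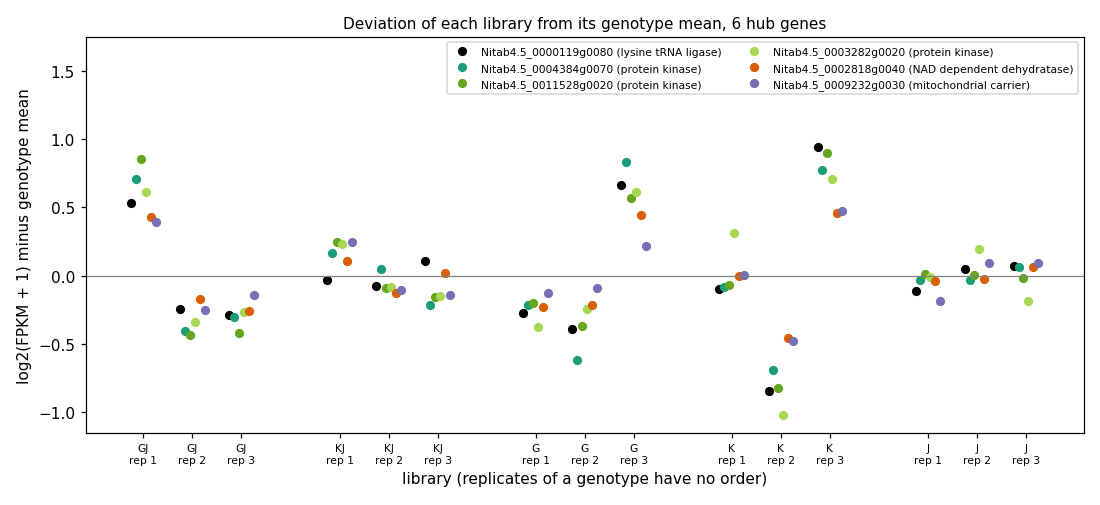
Log2(FPKM + 1) of each hub gene minus the mean of its genotype, for every library, with 1 colour for each gene and the genotypes in the order GJ, KJ, G, K, J. The points of all 6 genes lie on the same side of 0 in GJ replicate 1 (0.39 to 0.85) and K replicate 3 (0.46 to 0.94), and they stay within 0.20 of 0 in J.

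The likeness of the 6 genes was asked for inside the hybrids alone and inside the parents alone. Inside the 6 hybrid libraries Pearson r of log2(FPKM + 1) was 0.904 to 0.990 over the 15 pairs of hub genes (median 0.958). Exact permutation of the pairings gave adjusted p from 0.00417 to 0.0444, with adjustment over the 30 pairs of both sets. Here and below the permutation moved libraries freely between genotypes, so differences between genotype means alone can lower these p-values. With 1 library left out, 0 of the 15 pairs kept an adjusted p of at most 0.05 without GJ replicate 2, GJ replicate 3 or KJ replicate 1, 6 did without GJ replicate 1, 9 without KJ replicate 2 and 15 without KJ replicate 3, while the median r was 0.934 to 0.982. Fewer libraries leave fewer orderings and a higher lowest possible p, so a lost call need not mean a lower r. Spearman rho was 0.543 to 1.00 (median 0.829), and 7 of 15 pairs had an adjusted p of at most 0.05 by the same exact test (0.00956 to 0.297). The closest pair by rank was Nitab4.5_0003282g0020 with the carrier gene, r 0.989 and rho 1.00. The ligase gene with Nitab4.5_0011528g0020 had the lowest value of both, r 0.904 and rho 0.543.

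The hybrid values rested on GJ replicates 2 and 3, the lowest hybrid libraries. Without these 2 libraries, which lay farthest from the median, r was -0.36 to 0.99 (median 0.668) and stayed at 0.50 or more for 9 of the 15 pairs. The pairs that did not hold were the ligase gene with each kinase and with the carrier gene, and the dehydratase gene with Nitab4.5_0004384g0070 and with Nitab4.5_0011528g0020. Taken as deviations from the means of GJ and KJ, the pairs had r of 0.773 to 0.995 (median 0.947). These values rested largely on GJ replicate 1, which deviated by 0.39 to 0.85 in all hub genes, while the KJ deviations stayed between -0.22 and 0.25.

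Inside the 9 parental libraries r was 0.905 to 0.993 (median 0.935), with exact permutation adjusted p from 2.48e-04 to 0.00490. Spearman rho was 0.700 to 0.983 (median 0.883), and 14 of 15 pairs had an adjusted p of at most 0.05 (0.00149 to 0.0590, exact permutation). The closest pair by r was the ligase gene with Nitab4.5_0011528g0020, which had been the least close inside the hybrids. Without the 2 libraries farthest from the median, which were replicate 3 of K with replicate 3 of G or replicate 1 of K, r was 0.620 to 0.972 (median 0.877) and at least 0.50 in all 15 pairs. Deviations from the means of G, K and J gave r of 0.858 to 0.993 (median 0.933), with the differences between parents removed.

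**Figure D4:**
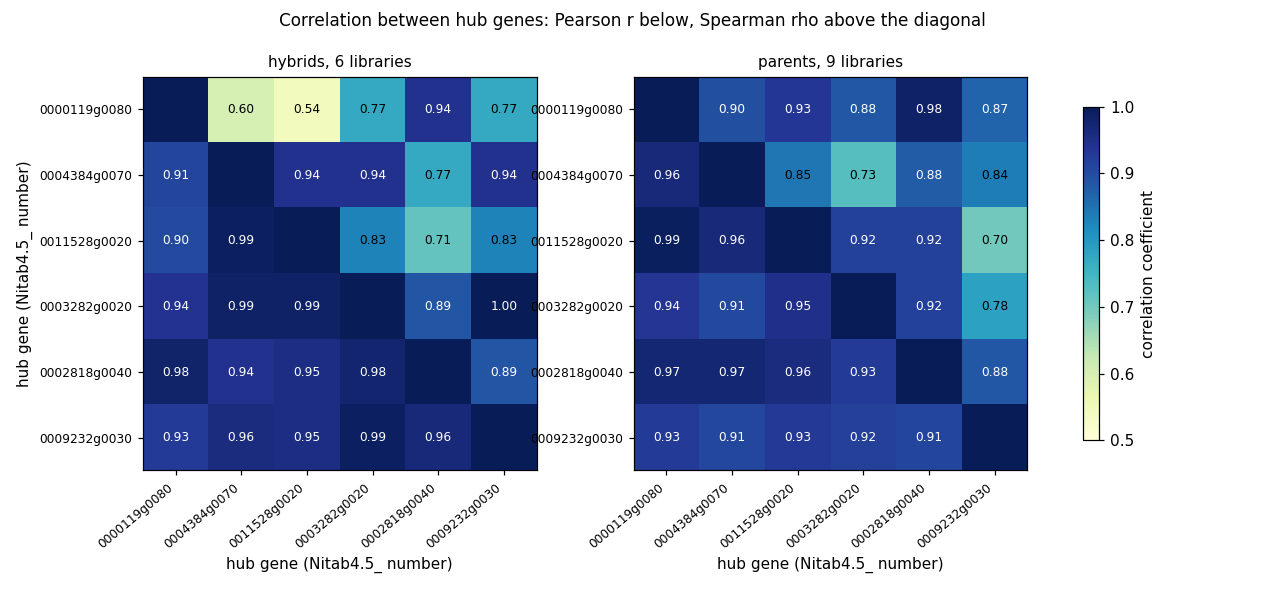
Correlation of log2(FPKM + 1) between hub genes, with Pearson r below and Spearman rho above the diagonal, for the 6 hybrid libraries on the left and the 9 parental libraries on the right. Every r lies between 0.904 and 0.993, while rho inside the hybrids falls to 0.543 for the ligase gene with Nitab4.5_0011528g0020.

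Across all 15 libraries r between hub genes was 0.963 to 0.990, as a description, since these are the libraries the network was built on. Many other genes followed the same course. Of the other 37226 tested genes, 761 had r of at least 0.9 with the mean standardized level of the 6 hub genes over the 15 libraries, and 1408 had r of -0.9 or less. For a single hub gene, the share of other tested genes at r of 0.9 or more was 2.07% to 3.43% inside the hybrids, 0.492% to 0.701% inside the parents and 1.77% to 1.99% over all libraries. Among the genes most like the ligase gene inside the parents, Nitab4.5_0011528g0020 ranked 1st, whereas inside the hybrids the nearest hub gene ranked 52nd. A high r is reached more readily with fewer libraries, here 6 in hybrids against 9 in parents. These shares and ranks therefore do not compare hybrids with parents.

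The 5 genes with the most similar course over the 15 libraries, of those that averaged 5 FPKM or more, were Nitab4.5_0001486g0060 (r 0.991), Nitab4.5_0003750g0030 (0.986), Nitab4.5_0004848g0030 (0.984), Nitab4.5_0009567g0010 (0.984) and Nitab4.5_0007392g0040 (0.983). They are given by identifier, as no description of them was used here. Nitab4.5_0001486g0060 averaged 17.6 ± 12.6 FPKM in GJ and 36.7 ± 11.1 FPKM in KJ, against 2.80 ± 2.18 in G, 9.01 ± 9.50 FPKM in K and 2.43 ± 0.30 FPKM in J (n = 3 libraries each, ± SD). Likeness of course did not mean likeness of size. Nitab4.5_0004848g0030 stood at 83.1 to 111 FPKM in hybrids, against 60.1 to 84.0 FPKM in parents, while Nitab4.5_0009567g0010 stood at 8.79 to 54.4 FPKM, against 0.44 to 23.8 FPKM.

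The level of the hub genes moved with the main axis of variation of the other genes. On the first principal component, computed without the 6 hub genes, hybrid libraries lay at 22.6 to 93.8, against -81.5 to 2.30 for parental libraries. The 12 correlations of the hub genes with this axis, inside the hybrids and inside the parents, were added after the data were examined. The axis still held the many genes that follow the hub genes in these same libraries, in which the hub genes were chosen as most connected. A close relation was therefore largely built in, and the p-values below are not independent evidence for it. Inside the hybrids r was 0.913 to 0.992 (exact permutation adjusted p from 0.00448 to 0.0333) and rho 0.714 to 1.00 (0.0185 to 0.136), and without the 2 farthest libraries r was 0.02 to 0.98. Inside the parents r was 0.769 to 0.877 (permutation adjusted p from 0.00448 to 0.0174) and rho 0.711 to 0.883 (0.0185 to 0.0450), and r was 0.606 to 0.828 without the 2 farthest libraries. The part of this axis in the differences between genotypes was not tested.

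**Figure D5:**
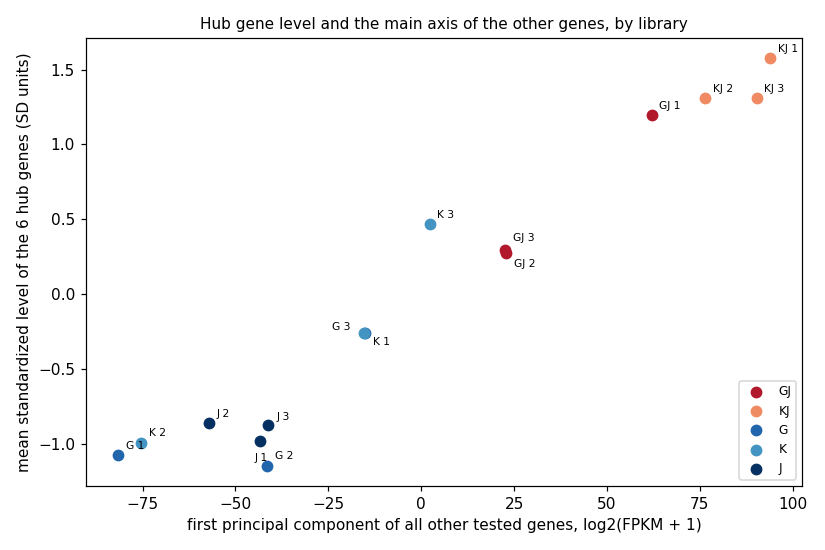
Mean standardized log2(FPKM + 1) of the 6 hub genes in each library against the first principal component of all other tested genes, with 1 colour for each genotype and the replicate numbers beside the points (the points of G replicate 3 and K replicate 1 coincide). Hybrid libraries lie at 0.27 to 1.58 on the vertical axis and parental libraries at -1.14 to 0.47, with replicate 3 of K as the highest parental one.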

How the data were processed

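The authors removed reads below 25 nt and of low quality from paired-end libraries, aligned the others against the genome of K326, and estimated abundance with RSEM. The study names Tophat2, and the submitters' processing notes list HISAT2 and StringTie, without versions. The deposited values are FPKM with 2 decimals, as the study calls them. Their sums of 801594 to 827438 per library do not tell FPKM from TPM, and the study's read totals were not used here.

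Genotype means of log2(FPKM + 1) were fitted to all 15 libraries with limma 3.58.1 (R 4.3.3; trend and robust options; no covariate) after a check on simulated data. Mid-parents were means on the log2 scale, and 12 contrasts were made. Correlations used exact permutation in Python 3.11.15 with SciPy 1.17.1. Alternatives were another pseudocount, filter, scaling, mid-parent and limma setting, a replicate block, and libraries left out.

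The hub genes and lists were chosen with earlier results of these data known. Named genes were the hub genes, 3 cell differentiation genes from the study's text, the 5 genes of most similar course with a mean of at least 5 FPKM, and tested neighbours by identifier. None of the 6 identifiers matched the reference gene table, so no sequence is shown.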

Additional observations from a re-analysis of the deposited data

How the results depend on the processing

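No hub gene turned its direction against a mid-parent or between the hybrids under the alternatives run. For the other comparisons only the count of called genes and the median over the hub genes were followed. The median of the uncalled J minus G difference turned from -0.05 to 0.28 without G replicate 3. Changing the pseudocount to 0.1, the filter (none, or a mean of at least 5 FPKM), the scaling (median-of-ratios or quantile) or the limma options gave 4 or 5 called hub genes for GJ against its mid-parent and 6 for KJ, with 5 in GJ under the pseudocount of 0.1 and median-of-ratios scaling, where the carrier gene passed the fold limit (1.04 and 1.03). Leaving out 1 library gave 2 to 5 called genes for GJ against its mid-parent, 1 to 5 against G, 1 to 5 against J and 0 to 2 against K, 4 to 6 for KJ against K, and a median r inside parents of 0.890 to 0.957 (lowest without replicate 3 of K). On linear FPKM 13 of the 15 hybrid pairs kept an adjusted p of at most 0.05 by exact permutation. With K replicate 2, J replicate 2 and G replicate 1 all left out, 3 genes were called for KJ against K. Against the plain mean of both parents the ligase gene was 2.13 higher in KJ on the log2 scale.

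Replicate numbers did not pair the libraries (r of deviations from -0.46 to 0.55, and 3 of 15 libraries correlated best with their own number). With a replicate block 4 hub genes were called in GJ and 6 in KJ against the mid-parents, as without it. Median-of-ratios scaling moved the median of all genes in KJ by over 0.1, from -0.24 to 0.00, and turned the genes called in KJ to 2447 higher and 1387 lower from 1557 higher and 2462 lower, and those in GJ to 1025 and 649 from 893 and 804. The hub gene medians were then 2.37 in KJ and 1.64 in GJ. No test on read counts was run, since the values are not counts.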

Other observations

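The study's text names 3 genes for cell differentiation, taken from genes that it classed as expressed beyond both parents in both hybrids. That they stood higher in these same hybrid libraries is therefore what chose them, and their calls are not independent evidence. Of all tested genes, 2.4% were called higher than the mid-parent in GJ and 4.18% in KJ. The 3 genes followed the hub genes to different degrees. Nitab4.5_0002918g0030 lay at 24.2 to 67.7 FPKM in hybrid libraries, against 1.98 to 14.0 FPKM in parental ones, and was called higher than the mid-parent in GJ (2.52 on the log2 scale) and in KJ (2.76) by limma. Nitab4.5_0008353g0010 was called with 2.24 in GJ and 2.31 in KJ, and Nitab4.5_0002714g0010 with 1.79 and 1.28. Their r with the mean standardized level of the hub genes was 0.955, 0.912 and 0.831 over the 15 libraries in that order. It was 0.948, 0.898 and 0.583 over the parental libraries, and 0.618, 0.200 and -0.11 over the 6 hybrid libraries, given as a description.

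Other genes share the first number of a hub gene's identifier, and the nearest tested ones below and above were taken. They were set against the mean standardized level of all 6 hub genes, and not against their own hub gene alone. The r of these 9 genes with that mean level over the 15 libraries was -0.77 to 0.79. The gene numbered next above the ligase, Nitab4.5_0000119g0100, was called lower in KJ than its mid-parent (-1.02 on the log2 scale), with 0.96 to 2.27 FPKM in hybrids, against 2.28 to 6.98 FPKM in parents. The gene next below, Nitab4.5_0000119g0070, was not called against the mid-parent in either cross, at 0.92 above the mid-parent in GJ and 0.55 in KJ. Nitab4.5_0011528g0010, next below the kinase Nitab4.5_0011528g0020, was called higher in GJ than in G (1.01), as were 2.39% of tested genes. Next to the kinase Nitab4.5_0003282g0020, Nitab4.5_0003282g0010 stood at 0.26 to 0.72 FPKM in hybrids, against 0.60 to 3.37 FPKM in parents. It was not called against the mid-parent in either cross and was called lower in KJ than in K (-1.09) and in GJ than in K (-1.12). Between GJ and K 1.98% of tested genes were called in either direction. The gene next above that kinase, Nitab4.5_0003282g0030, went the other way. It stood 0.56 above the mid-parent in GJ and 0.84 in KJ, without a call in either. It was called higher in KJ than in J (1.35), as were 4.8% of tested genes. Its r with the mean level of the hub genes was 0.79 over the 15 libraries, 0.74 inside the parents and 0.93 inside the hybrids.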
